A study of Mus musculus with 3 samples.

Results

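The 10 genes of glucose use described here were followed through an in vitro Leydig differentiation of mouse testis cells. They were chosen by name, as a transporter, the enzymes that follow it and a kinase at the exit of the pathway: Slc2a1, Hk2, Pfkp, Aldoa, Gapdh, Pgk1, Pkm, Ldha, Ldhb and Pdk1. Earlier results of these data were known when these genes and the lists set beside them were chosen. All 10 members were present among the 24698 genes of the count table, and each held at least 455 transcripts. Cells came from testes of adult C57BL/6 males of 8–12 weeks, with no transgene or other treatment named, and were sorted as Sca1+/cKit-, a fraction that excludes cells with the germ and Leydig cell surface receptor Kit. In Matrigel-coated wells they recovered for 18 h in serum and were then expanded for 3 days with PDGFAA, PDGFBB and FGF2 (10 ng/ml each) and the Hedgehog agonist SAG (0.5 µM). The differentiation medium kept these 4 factors and added 5 mM LiCl2 and the Notch pathway inhibitor DAPT at 10 µM, and cells were taken at days 4, 7 and 14. All 3 groups share strain, sort and the 4 factors. By this schedule the change of medium falls at about day 4, so days 7 and 14 differ from day 4 in LiCl2 and DAPT as well as in time, and these cannot be told apart.

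Glycolysis splits glucose into pyruvate, and cells draw on it for ATP and for building blocks. Proliferating and poorly oxygenated cells typically turn much of the pyruvate into lactate, whereas steroid-making cells depend on mitochondria, where the side chain of cholesterol is cleaved. Several steps are carried out by products of different genes, so a cell can keep a step while changing the gene that serves it.

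Drop-seq captures single cells in droplets on barcoded beads, where every molecule of cDNA is tagged with its own identifier (UMI), so that copies made by PCR count once. There was 1 library a day, with 2980, 2171 and 973 barcodes kept at days 4, 7 and 14 and 12677110, 11627440 and 5324400 UMIs in all. Levels are the summed UMIs of a gene scaled to 1000000 UMIs of its library (CPM), with exact Poisson intervals at 95%. With 1 library a day no test was possible, no p-value is given, and the day cannot be told apart from the library. Intervals cover counting error only. Of the kept barcodes, 2834 of 6124 (46.3%) shared their first 11 of 12 bases with another barcode of the same library, so that 1 cell may count more than once in numbers of barcodes, while summed levels keep their value. No barcode was shared between libraries. The sort and the day labels were set against their genes. Kit stood at 0.789, 0.0860 and 2.07 CPM and Ly6a, the gene of Sca1, at 523, 64.2 and 358 CPM at days 4, 7 and 14, and Cyp11a1, the cholesterol side-chain cleavage enzyme, at 19.5, 56.8 and 2089 CPM. Markers of other testis cells were low, macrophage markers at day 14 less so. Summed macrophage markers (9 genes) reached 10.6, 28.5 and 240.0 CPM by day, germ cell markers (7 genes) 117, 19.2 and 50.1, endothelial markers (8 genes) 90.6, 120.5 and 35.9, and Sertoli markers (6 genes) 32.6, 35.5 and 14.1, of which Amh and Fshr were at 0 on every day. Their part in the levels below was not tested.

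By day 14 the pathway had changed gene by gene and not as a block. Slc2a1, Hk2 and Pfkp, called the 3 entry genes below, were lower than at day 4 by 2.97 to 3.68 times. Ldha was lower by 1.93 times, and Ldhb was higher by 9.21 times. A gene was called higher or lower when it held at least 100 UMIs over both days and its CPM differed by at least 1.5-fold. Between day 4 and day 7, 0 members were called higher, against 10.3% of 10161 genes tested, and only Hk2 was called lower, against 6.27%. From day 7 to day 14, 1 member was called higher (16.1% of 9582 genes) and 4 were called lower (28.3%). From day 4 to day 14, 3 members were called higher (21% of 9555 genes) and 4 lower (29.1%). The share of members called was therefore not far from that of all genes in either direction, and what follows concerns which members they were. The median log2 ratio from day 4 to day 14 was 0.42 over the 10 members and -0.13 over all genes tested.

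**Figure D1:**
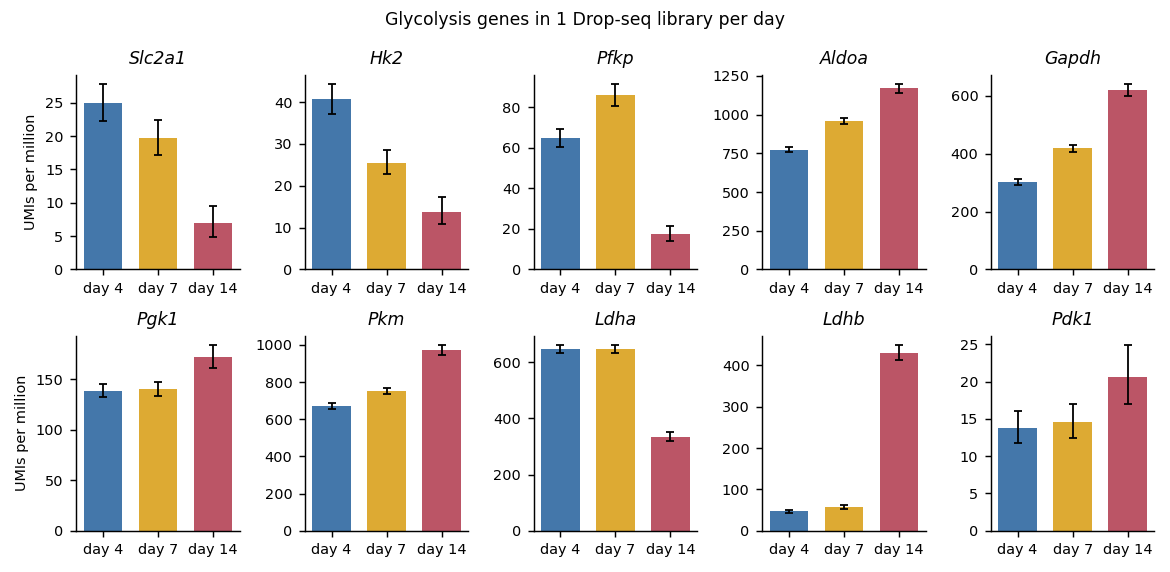
CPM (linear axes from 0) of the 10 genes in the day 4 (blue), day 7 (yellow) and day 14 (red) libraries, with exact Poisson 95% intervals that cover counting error only and 1 library per bar. Slc2a1, Hk2 and Pfkp were lowest at day 14, Ldha stood at 646, 646 and 335, and Ldhb rose from 46.8 to 431.

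Slc2a1 (GLUT1; chromosome 4 of GRCm38, 119108711–119137983) is the basal glucose transporter of most cultured cells. It had 316 UMIs at day 4, 229 at day 7 and 37 at day 14, or 24.9 (22.3–27.8), 19.7 (17.2–22.4) and 6.95 (4.89–9.58) CPM. The day 14 level lay below the others, with no overlap of intervals, and was 3.59 times lower than at day 4 (interval 2.55–5.19). Hk2 (chromosome 6, 82725025–82774454), the inducible hexokinase that traps glucose as its phosphate, stood at 40.7 (37.3–44.4), 25.5 (22.7–28.6) and 13.7 (10.7–17.2) CPM from 516, 297 and 73 UMIs. It was the 1 member called lower at both steps, 1.59 times lower from day 4 to day 7 (1.38–1.84) and 1.86 times from day 7 to day 14 (1.44–2.44). Pfkp (chromosome 13, 6579768–6648777), the platelet-type subunit of phosphofructokinase, the committed step, did not follow this order. It held 823, 1002 and 94 UMIs and stood at 64.9 (60.6–69.5), 86.2 (80.9–91.7) and 17.7 (14.3–21.6) CPM, highest at day 7 and 4.88 times lower at day 14 than at day 7 (3.95–6.10). Summed over these 3 entry genes, the level was 131 CPM at day 4, 131 at day 7 and 38.3 (33.2–43.9) at day 14. That sum leaves out other genes of the same steps, and with them the fall was smaller. Hk1 and Hk2 together stood at 84.6, 67.5 and 42.1 CPM by day, and Pfkp, Pfkl and Pfkm together at 91.3, 118 and 70.1.

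The members of the middle and lower pathway, Ldha apart, did not share the fall of the entry genes. Aldoa (chromosome 7, 126795234–126800751), the main aldolase outside liver and brain, which cleaves the 6-carbon sugar, stood at 774 (759–790), 957 (939–975) and 1169 (1140–1199) CPM from 9815, 11129 and 6226 UMIs. Gapdh (chromosome 6, 125161715–125166467), the dehydrogenase of the next stage, stood at 303 (294–313), 419 (407–431) and 620.0 (599–641) CPM from 3842, 4873 and 3301 UMIs. Both levels were higher at each later day without overlapping intervals, and from day 4 to day 14 Gapdh was 2.05 times higher (1.95–2.14) and Aldoa 1.51 times (1.46–1.56), at the edge of the 1.5-fold limit. Gapdh was therefore no constant reference in this culture.

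Pgk1 (chromosome X, 106187100–106203699), the first enzyme of the pathway to return ATP, moved least of the higher members. It had 1759, 1632 and 918 UMIs, or 139 (132–145), 140.4 (134–147) and 172 (161–184) CPM, and its ratio of day 14 to day 4 was 1.24 (1.15–1.35). Pkm (chromosome 9, 59656368–59679375), whose pyruvate kinase closes the pathway, stood at 672 (658–687), 751 (735–767) and 972 (946–999) CPM from 8521, 8734 and 5177 UMIs. Its ratio of 1.45 stayed under the limit, and the 3' counts cannot separate its M1 and M2 splice forms. Pdk1 (chromosome 2, 71873224–71903858), the kinase that shuts pyruvate dehydrogenase and so keeps pyruvate out of mitochondria, was the least abundant member at day 4. It had 175, 170 and 110 UMIs, or 13.8 (11.8–16.0), 14.6 (12.5–17.0) and 20.7 (17.0–24.9) CPM, with a ratio of 1.497 that came just short of the limit (1.17–1.91).

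Ldha and Ldhb code for the subunits that assemble into lactate dehydrogenase tetramers. The A subunit is textbook background for tissues that make lactate, and the B subunit for tissues such as heart that take it up. Ldha (chromosome 7, 46841475–46855627) had 8195, 7507 and 1784 UMIs and stood at 646 (633–661), 646 (631–660) and 335 (320–351) CPM. Its levels at days 4 and 7 were within counting error of each other, with a ratio of 0.999 (0.968–1.03), and day 14 lay 1.93 times lower than day 7 (1.83–2.03). Ldhb (chromosome 6, 142490249–142507957) had 593, 674 and 2294 UMIs and stood at 46.8 (43.1–50.7), 58.0 (53.7–62.5) and 431 (413–449) CPM. From day 4 to day 7 the ratio was 1.24 (1.11–1.39), and from day 7 to day 14 it was 7.43 (6.82–8.11). The sum of the 2 genes changed little, at 693, 704 and 766 CPM.

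The share of Ldhb among the UMIs of both genes needs no scaling between libraries. It was 6.75% at day 4 (593 of 8788 UMIs, exact Clopper-Pearson 95% interval 6.23–7.29%), 8.24% at day 7 (7.65–8.86%) and 56.3% at day 14 (54.7–57.8%, 2294 of 4078). At days 4 and 7 Ldha dominated, and at day 14 Ldhb held more UMIs than Ldha. The share of barcodes with at least 1 Ldhb UMI was 15.3%, 23.3% and 66.6% by day at median depths of 2886.5, 3285 and 3272 UMIs, and 6.33%, 9.07% and 44.5% after each barcode was thinned to 1500 UMIs, which left out 753, 429 and 179 barcodes. For Ldha the thinned shares were 60.5%, 60.4% and 37.7%, and unthinned 74.9%, 79.8% and 59.5%. With barcodes that shared their first 11 bases merged, the thinned shares of Ldhb were 6.82%, 8.49% and 44.3%. The part of free RNA in these shares was not tested. Ldhb was also among the marker genes that the study picked on these libraries, so its rise here is not independent of that choice.

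**Figure D2:**
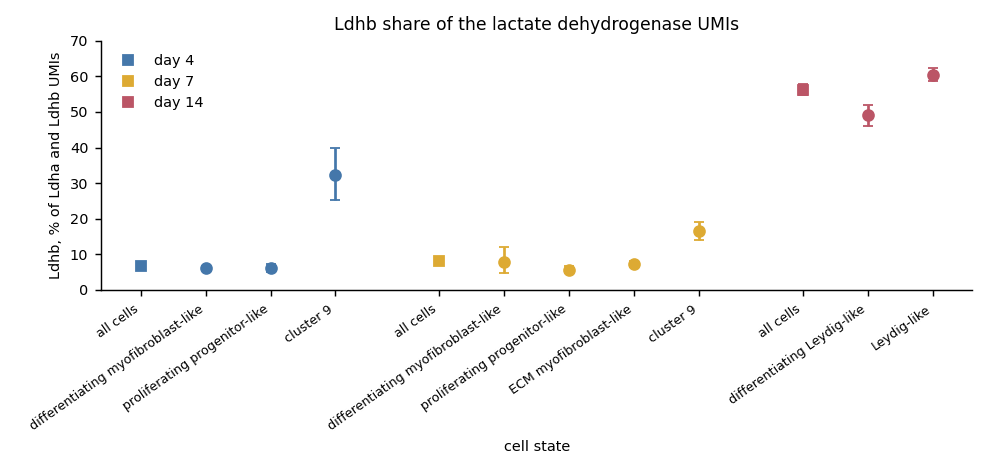
Ldhb UMIs as a percentage of Ldha and Ldhb UMIs (linear axis from 0) for all barcodes of a library (squares) and for each cell state with at least 50 barcodes (circles), with exact Clopper-Pearson 95% intervals and colours for days 4 (blue), 7 (yellow) and 14 (red). All but cluster 9 lay under 10% at days 4 and 7, cluster 9 stood at 32.4% and 16.5%, and both day 14 states lay near or above 49.0%.

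Promoters are shown for the subunit pair that changed over and for the 3 entry genes that were low together at day 14. The sequences are RefSeq's for GRCm38.p6, each the 250 bases before a start site on the gene's own strand, and capitals mark ACGTG or GCGTG on either strand (read as CACGT or CACGC on the printed one). This is the core that hypoxia-inducible factors recognise, and it overlaps the E-box CACGTG bound by Myc family proteins.
Ldha, chr7:46845554-46845803, plus strand: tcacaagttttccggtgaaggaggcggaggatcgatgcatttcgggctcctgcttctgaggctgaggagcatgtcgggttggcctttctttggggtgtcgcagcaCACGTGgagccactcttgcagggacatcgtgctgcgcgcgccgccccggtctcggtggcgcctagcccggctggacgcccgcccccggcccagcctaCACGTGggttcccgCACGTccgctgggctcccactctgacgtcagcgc
Ldhb, chr6:142507958-142508207, minus strand: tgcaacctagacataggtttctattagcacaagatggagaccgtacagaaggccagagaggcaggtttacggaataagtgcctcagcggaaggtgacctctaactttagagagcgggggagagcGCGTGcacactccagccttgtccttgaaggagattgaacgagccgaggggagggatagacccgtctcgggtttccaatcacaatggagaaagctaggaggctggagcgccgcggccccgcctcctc
Slc2a1, chr4:119108495-119108744, plus strand: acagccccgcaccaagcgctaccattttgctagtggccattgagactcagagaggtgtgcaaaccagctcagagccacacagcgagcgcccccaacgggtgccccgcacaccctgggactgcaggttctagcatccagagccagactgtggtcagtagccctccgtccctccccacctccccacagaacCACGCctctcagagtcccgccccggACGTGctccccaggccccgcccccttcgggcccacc
Hk2, chr6:82774455-82774704, minus strand: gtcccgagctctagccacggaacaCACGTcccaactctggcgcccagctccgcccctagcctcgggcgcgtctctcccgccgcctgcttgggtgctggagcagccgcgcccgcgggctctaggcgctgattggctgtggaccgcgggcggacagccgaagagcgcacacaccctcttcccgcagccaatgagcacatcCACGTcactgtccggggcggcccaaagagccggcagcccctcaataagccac
Pfkp, chr13:6648772-6649021, minus strand: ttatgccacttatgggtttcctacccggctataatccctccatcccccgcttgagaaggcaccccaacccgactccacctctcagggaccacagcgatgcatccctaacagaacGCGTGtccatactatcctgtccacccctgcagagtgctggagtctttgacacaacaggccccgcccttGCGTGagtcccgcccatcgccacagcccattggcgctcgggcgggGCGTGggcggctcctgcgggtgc

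The Ldha window shown held 3 separate stretches in capitals, 2 of them a full CACGTG, and the Ldhb window held 1 stretch and no CACGTG. RefSeq's other Ldha window (chr7:46846832-46847081), where a GENCODE transcript start was found, held 1 stretch and no CACGTG, as Ldhb did, so the pair differed in the window shown and not in the other. Slc2a1 and Hk2 held 2 stretches each and Pfkp held 3. Over the 15 windows that the table lists for the 10 members, 12 held the core, and every member had it in at least 1 window, while 38.6% of all 32851 windows of this length held it and 6.02% held CACGTG. Members differ in how many windows they have, and overlapping Aldoa windows count the same match more than once. The G and C content of the 15 windows ran from 38.4% to 69.6% and was not computed for all windows. The share among members therefore cannot be weighed against that of all windows. The opening bases of GENCODE Ldha transcripts were not found in the Ldha window shown or the 50 bases after it. These matches are letters in a window and were not set against any binding data.

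Most of the remaining glycolysis genes with enough UMIs were called higher at day 14, though the enolase genes differed in direction. Of 11 further genes of the pathway, 10 held at least 100 UMIs over days 4 and 14. Of these, 7 were called higher at day 14 (Gpi1, Pfkm, Aldoc, Tpi1, Pgam1, Eno1 and Eno2) and 2 lower (Hk1 and Eno3), beside 21% and 29.1% of all genes, with a median log2 ratio of 0.76 beside -0.13 over all genes. Aldoc, the brain-type aldolase, stood at 7.18, 22.4 and 72.1 CPM and was 10.05 times higher at day 14 than at day 4 (7.98–12.8). Pfkm, the muscle-type phosphofructokinase subunit, stood at 10.1, 13.2 and 32.7 CPM (3.24 times, 2.56–4.099). Eno1, the general enolase, stood at 360.3, 439.9 and 702 CPM (1.95 times, 1.86–2.03), whereas the muscle-type Eno3 stood at 14.5, 3.87 and 3.57 CPM. Gapdh, Eno1 and Aldoc were likewise among the study's own markers.

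Within phosphofructokinase the leading subunit changed. Pfkp made up 71.1% of Pfkp, Pfkl and Pfkm UMIs at day 4 (68.4–73.7%), 73.1% at day 7 (70.7–75.5%) and 25.2% at day 14 (20.9–29.9%). Pfkm, in turn, made up 11.1%, 11.2% (9.62–13.0%) and 46.6% (41.5–51.9%). The hexokinases moved less, with Hk2 at 48.1%, 37.8% and 32.6% of Hk1 and Hk2 UMIs, since Hk1 was also lower at day 14 (28.4 CPM, from 43.9 at day 4). Genes that set the level of fructose-2,6-bisphosphate, the activator of phosphofructokinase, were scarce. Pfkfb1 stood at 1.74, 1.46 and 0.939 CPM by day, Pfkfb2 at 1.97, 3.96 and 9.39, and Pfkfb3, the proliferation-linked form, at 6.31, 5.93 and 2.44. Pfkfb4 stood at 2.68, 3.18 and 7.89 and the phosphatase gene Tigar at 6.39, 6.62 and 5.45, and between days 4 and 14 only Tigar had enough UMIs to be tested, with 0 genes called.

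**Figure D3:**
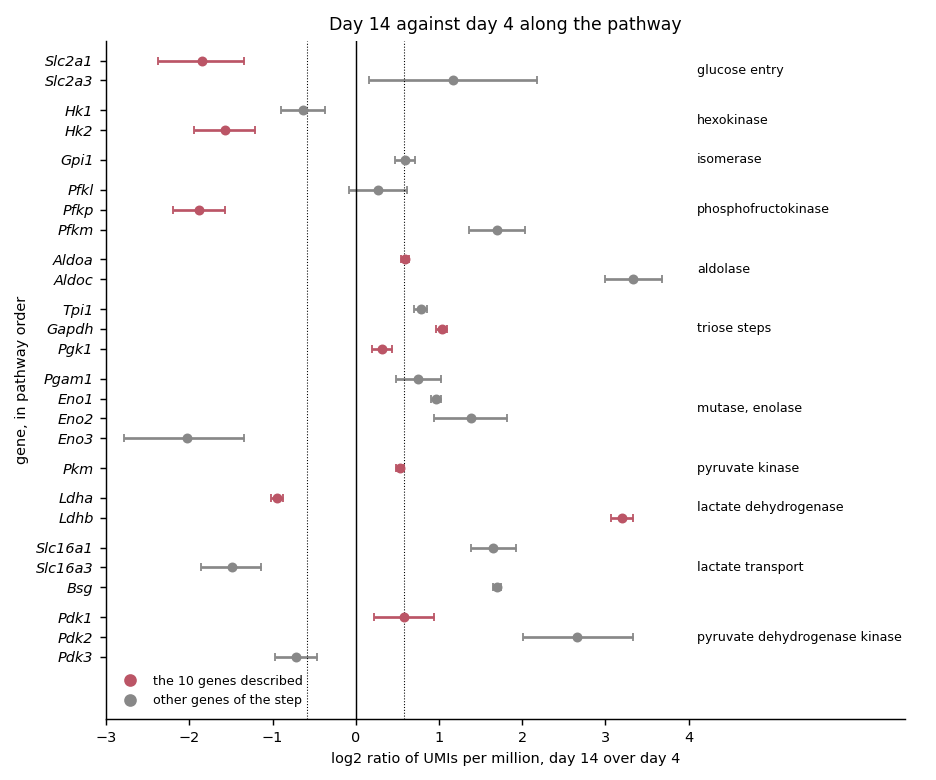
Log2 ratio of CPM at day 14 over day 4 for the 10 genes described (red) and other genes of the same steps (grey), in pathway order from glucose entry to lactate transport and pyruvate dehydrogenase kinases, with exact 95% counting intervals, 0 as a solid line and 1.5-fold as dotted lines. Slc2a1, Hk1, Hk2, Pfkp, Eno3, Ldha, Slc16a3 and Pdk3 lie left of the left dotted line, and Aldoc and Ldhb lie farthest to the right.

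Downstream of pyruvate, 4 of 13 genes tested were called higher at day 14 than at day 4 (Pdk2, Pdhx, Slc16a1 and Bsg) and 3 lower (Pdk3, Pdha1 and Slc16a3), beside 21% and 29.1% of all genes, with a median log2 ratio of 0.42 beside -0.13. The lactate transporters crossed over as the dehydrogenase subunits did. Slc16a3 (MCT4), typical of cells that export lactate, stood at 39.6, 49.7 and 14.1 CPM, and Slc16a1 (MCT1), which serves uptake as well, at 15.8, 16.9 and 49.6 CPM. Slc16a1 thus made up 28.5% of the UMIs of both at day 4 (25.2–32.0%), 25.4% at day 7 (22.4–28.6%) and 77.9% at day 14 (73.1–82.2%). Bsg, their shared chaperone, stood at 491, 699.6 and 1588 CPM. Among the pyruvate dehydrogenase kinases, Pdk2 stood at 2.21, 3.18 and 13.9 CPM and Pdk3 at 52.4, 43.4 and 31.9, so that Pdk1 took 19.8%, 23.1% and 30.5% of the UMIs of all 4 kinases.

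Other targets of hypoxia-inducible factors were called about as often as genes at large. Of 14 genes of that list tested between days 4 and 14, 3 were called higher (Bnip3, Bnip3l and Ndrg1) and 3 lower (Vegfa, Adm and Ankrd37), beside 21% and 29.1% of all genes, with a median log2 ratio of -0.23 beside -0.13 over all genes. Vegfa, the angiogenic factor, stood at 108, 92.0 and 30.2 CPM and Adm, a vasodilator peptide gene, at 57.3, 21.1 and 10.9 CPM. Ndrg1 stood at 48.6, 39.4 and 591 CPM, 12.2 times higher at day 14 than at day 4 (11.2–13.3). Of the 5 regulators, Hif1a stood at 99.5, 122 and 105 CPM, Epas1 at 16.6, 8.94 and 21.8, Arnt at 12.5, 12.0 and 13.9, and Vhl at 17.3, 16.3 and 18.6. Only Myc passed the limit from day 4 to day 14, at 48.3, 31.7 and 13.9 CPM, or 3.47 times lower.

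Cell states were rebuilt by clustering without the 10 members and the listed genes, and named from marker lists. Names therefore may differ from the study's. Of the day 4 barcodes, 2204 were differentiating myofibroblast-like and 595 proliferating progenitor-like. Of those of day 7, 1280 were extracellular matrix (ECM) myofibroblast-like, 481 proliferating progenitor-like and 62 differentiating myofibroblast-like. Day 14 held 540 differentiating Leydig-like and 403 Leydig-like barcodes. One cluster, number 9, was led by the elastic fibre genes Eln, Mfap2 and Mfap4 and the matrix gene Fmod, stayed unnamed, and held 93 barcodes at day 4 and 283 at day 7. A cluster of 56 barcodes with macrophage and spermatid genes had too few barcodes on any day. At day 14, summed macrophage markers stood at 9.97 CPM in differentiating Leydig-like and 11.7 in Leydig-like barcodes, against 240.0 in all barcodes.

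**Figure D4:**
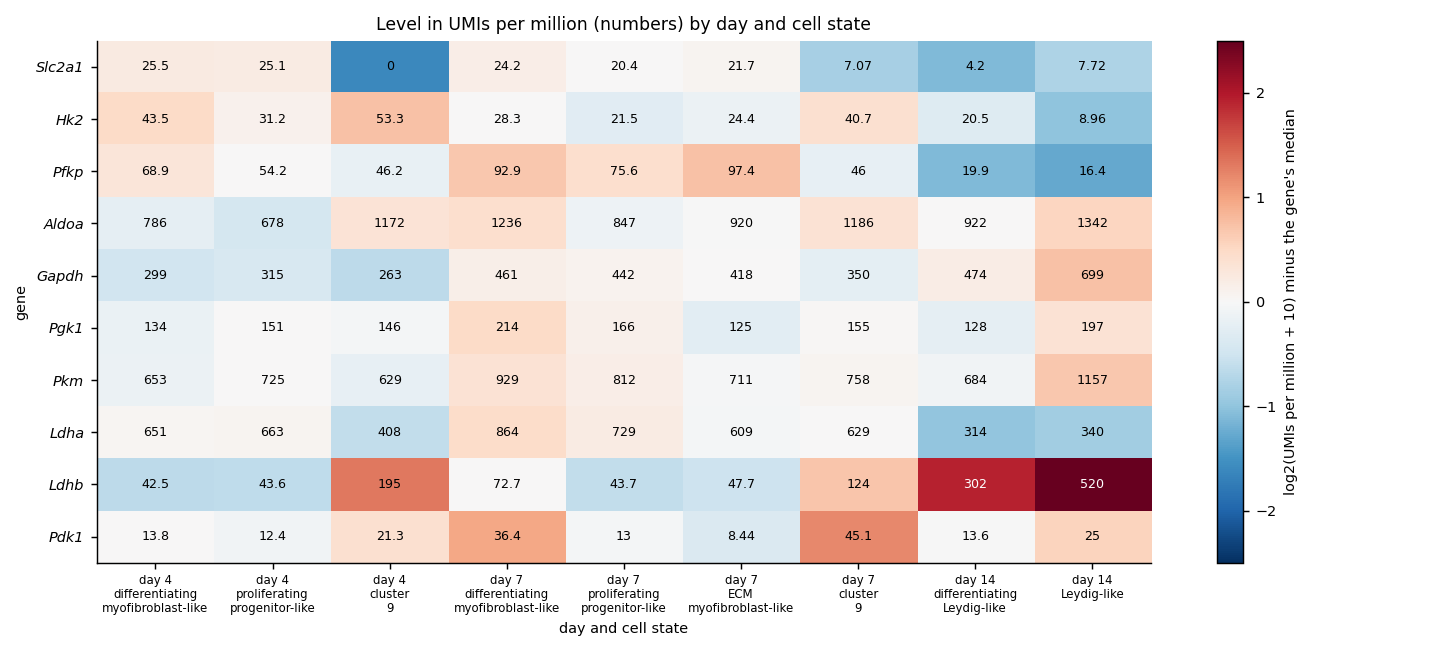
CPM (numbers) of the 10 genes in the 9 groups of day and cell state with at least 50 barcodes. Colour gives log2(CPM + 10) minus the gene's median over the 9 groups, blue for lower and red for higher. The 2 day 14 groups are low in Slc2a1, Pfkp and Ldha and high in Ldhb, and cluster 9 shares the low Slc2a1 and part of the high Ldhb.

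Between cycling and non-cycling cells of the same day no member tested was called, which is near the small share called among all genes. At day 4, proliferating progenitor-like against differentiating myofibroblast-like barcodes gave 0 members higher (9.49% of 8343 genes tested) and 0 lower (5.65%), and at day 7 against ECM myofibroblast-like barcodes 0 higher (10.6% of 8130 genes) and 0 lower (7%), with Pdk1 short of 100 UMIs there. The highest ratio among the members tested was that of Pgk1 at day 7, 1.33 (1.18–1.49), from 166 against 125 CPM. The lowest was that of Hk2 at day 4, 0.719 (0.566–0.904), from 31.2 against 43.5 CPM. Ldhb shares were 6.17% (5.17–7.30%) and 6.13% (5.55–6.74%) in the 2 states of day 4, and 5.66% (4.71–6.74%) and 7.26% (6.54–8.03%) in those of day 7. No member tested thus passed 1.5-fold between cycling and non-cycling cells, although Pdk1 at day 7 stood at 13.0 against 8.44 CPM (1.54, 0.985–2.36) from 35 and 62 UMIs, and the intervals of some ratios, such as that of Hk2 at day 4, did not include 1.

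Within day 14, Leydig-like barcodes held more of the middle and lower pathway than differentiating Leydig-like barcodes, at median depths of 5947 and 2181.5 UMIs. Of the 7 members with enough UMIs, 4 were called higher (8.87% of 5861 genes) and 0 lower (9.37%), with a median log2 ratio of 0.63 beside -0.01 over all genes. Pkm stood at 1157 against 684 CPM (ratio 1.69, 1.59–1.80), Pgk1 at 197 against 127.5 (1.54, 1.33–1.80), Ldhb at 520.3 against 302 (1.72, 1.57–1.90) and Pdk1 at 25.0 against 13.6 (1.83, 1.17–2.97). Aldoa (1342 against 922 CPM) and Gapdh (699 against 474) had ratios of 1.46 and 1.47, just under the limit. Ldha stood apart from these, at 340.5 against 314 CPM with a ratio of 1.08 (0.980–1.199). Aldoa, Pgk1 and Pkm in differentiating Leydig-like barcodes (922, 127.5 and 684 CPM) lay near day 7 ECM myofibroblast-like levels (920, 125 and 711 CPM). Gapdh was higher there, at 474 against 418 CPM. For the first 3 genes, the higher day 14 level was thus seen in the Leydig-like barcodes. With all barcodes thinned to 1500 UMIs, 1 of 6 members tested (Ldhb) was still called higher.

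Slc2a1 and Pfkp were low in both states of day 14. Slc2a1 stood at 7.72 CPM in Leydig-like and 4.20 in differentiating Leydig-like barcodes from 25 and 8 UMIs, and Pfkp at 16.4 and 19.9 CPM from 53 and 38. Hk2 stood at 8.96 against 20.5 CPM from 29 and 39 UMIs, 2.28 times lower in the Leydig-like barcodes (1.38–3.83), below the count needed for a call. In differentiating Leydig-like barcodes its interval (14.6–28.0 CPM) overlapped those of day 7 proliferating progenitor-like (21.5 CPM, 16.3–27.8) and ECM myofibroblast-like barcodes (24.4 CPM, 20.9–28.2). The Ldhb share was 60.4% (58.6–62.3%) in Leydig-like and 49.0% (46.1–51.9%) in differentiating Leydig-like barcodes, without overlap. Aldoc stood at 100.4 against 28.3 CPM and Eno1 at 868 against 434, whereas Pfkm stood at 31.8 and 34.1 CPM, which differed by less than counting error. Of the other glycolysis genes, 5 of 8 tested were called higher in Leydig-like barcodes (Gpi1, Aldoc, Tpi1, Pgam1 and Eno1) and 0 lower. Beside them stood 8.87% and 9.37% of all genes, and the median log2 ratio was 0.63 beside -0.01. The unequal depth of both states, given above, holds for these calls too. The immediate early genes Fos and Egr1, which respond to dissociation, were lower in the Leydig-like barcodes, at 52.2 against 138 and 93.6 against 233 CPM, and their part in these differences was not tested. The 10 members summed made up 0.431% of UMIs in Leydig-like and 0.288% in differentiating Leydig-like barcodes, and 0.270% to 0.396% in the other 7 groups. The 0.396% was that of the 62 day 7 differentiating myofibroblast-like barcodes. They held the highest Pgk1 (214 CPM, 160–280, from 53 UMIs) and Ldha (864 CPM, 753–988) of the 9 groups.

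Cluster 9 was the group before day 14 with the most Ldhb. At day 4, against differentiating myofibroblast-like barcodes, 2 members were called higher (18.9% of 7592 genes) and 2 lower (27.7%). These counts were not far from the shares of all genes. Ldhb stood at 195 against 42.5 CPM from 55 and 391 UMIs (ratio 4.60, 3.40–6.11), and Ldha at 408 against 651 CPM, 1.59 times lower (1.33–1.93). Slc2a1 had 0 UMIs in cluster 9, where 3 UMIs of its 281565 would be 10.7 CPM, against 25.5 CPM beside it. By the exact interval it was at least 1.93 times lower. The call of Pdk1 (21.3 against 13.8 CPM) rested on 6 UMIs, with an interval of 0.556–3.45 that spans 1, and changed direction with the weighting of cells.

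At day 7, against ECM myofibroblast-like barcodes, cluster 9 had 3 members called higher (8.98% of 7560 genes) and 2 lower (12.7%). Ldhb stood at 124 against 47.7 CPM (2.60, 2.12–3.17), Pdk1 at 45.1 against 8.44 CPM from 51 and 62 UMIs (5.34, 3.61–7.86) and Hk2 at 40.7 against 24.4 CPM (1.67, 1.18–2.32). Slc2a1, at 7.07 against 21.7 CPM, was 3.06 times lower (1.52–7.21) and Pfkp, at 46.0 against 97.4 CPM, 2.12 times lower (1.597–2.86). Hk2 and Slc2a1 thus differed in direction between these groups, though both were low at day 14, and Ldha was within counting error, at 629 against 609 CPM (1.03, 0.953–1.12). The 12 differentiating Leydig-like markers, summed, stood at 6212 CPM in cluster 9 at day 4 and 8122 at day 7, against 2135 and 3677 CPM in the states it was compared with. Under other cluster settings part or all of these barcodes took the names differentiating Leydig-like or interstitial progenitor-like.

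Over the 9 groups, Ldhb had the widest range of the 10 members on log2(CPM + 10), from 42.5 CPM in day 4 differentiating myofibroblast-like barcodes to 520.3 in Leydig-like barcodes, or 12.2-fold. Pfkp and Hk2 spanned 5.95-fold each, Pdk1 5.34-fold, Ldha 2.75-fold, Gapdh 2.66-fold, Aldoa 1.98-fold, Pkm 1.84-fold and Pgk1 1.72-fold. Slc2a1 ran from 0 UMIs to 25.5 CPM, which gives no fold. The genes most like Ldhb on log2(CPM + 10), of 1871 with a mean of at least 100 CPM, were Gnas (Pearson r = 0.99), Fabp3 (0.99), Ubl5 (0.99), Sepp1 (0.99) and Eif4a2 (0.98), over 9 groups that share 3 libraries. Fabp3, a fatty acid binding protein gene, ran from 2.06 to 1114 CPM, whereas Ubl5 ran only from 189 to 348. Genes most like the mean of the 10 members were Fam162a (0.93), Scd1 (0.89), Vdac3 (0.87), Mif (0.84) and Scd2 (0.82). Within the set, Pfkp and Ldha went together (r = 0.88), and Hk2 and Gapdh (r = -0.95) and Ldha and Ldhb (r = -0.87) went opposite ways, which describes these 9 groups and carries no test.

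Near-identical copies limit some of these counts. Of the stretches of 94 bases, the length of read 2, in the last 500 bases of the annotated transcripts, 56.0% of those of Gapdh also occur in transcripts of other genes, of which 62 in the count table held 290 UMIs beside 12016 of Gapdh. For Ldhb the share was 11.8%, all in Gm5514, which held 34 UMIs beside 3561 of Ldhb, and for Ldha, Pkm and the other members it was at most 1.89%. The Gapdh level is therefore uncertain, and its 303 to 620.0 CPM cannot be read against other genes. The annotation also lists a neighbouring gene entry under the symbol Aldoa (chromosome 7, 126800790–126809108), which counts by symbol do not separate.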

How the data were processed

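Drop-seq libraries of days 4, 7 and 14, 1 per day, were read as the raw UMI counts per gene and barcode that the authors deposited. Reads were aligned to GRCm38 with STAR and counted with Drop-seq tools; the submitters' processing notes name STAR 2.5.2a, Picard 2.6.0 and SAMtools 1.2, and the study's methods a later STAR. Per the authors' methods the days were sequenced in 1 batch. The merged count table equalled the tables per day in every entry (0 differed), and 495 of its columns (day 0 cells) belong to no sample here and were not used. Depth was 594 to 80524 UMIs per barcode.

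A barcode was kept with 500 genes or more and no more than 10% of its UMIs from mitochondrial genes. Seurat 5.3.0 in R 4.3.3 clustered them (2000 variable genes, 20 components, 20 neighbours, resolution 0.8) after leaving out 98 genes, the members and lists found in the table. A cluster took the name of the marker list with the highest median ratio among lists with at least 3 markers at 1.5-fold and 10 UMIs, unless its top 10 genes held as many markers of another list, with thresholds set after the clusters were seen. Scrublet in scanpy 1.11.5 called 3 barcodes (0.0490%) as doublets. These calls were not checked, and the 6% of barcodes with the highest scores were left out as an alternative. Python 3.11.15, numpy 2.4.6, scipy 1.17.1 and pandas 2.3.3 computed all else, with seed 1, and the calling rule was tested on simulated data.

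Ratios of CPM carry exact conditional intervals, and shares exact Clopper-Pearson intervals (95%). All 10 members are named. Of each list, 2 to 4 genes with the largest ratios among those with at least 100 UMIs are named, and lists of up to 5 genes whole; genes named as called, in shares of a step or as other examples go beyond this and were chosen after their values were seen. Likeness used log2(CPM + 10). Members and lists were chosen with earlier results of these data known. Alternatives were no filter, a stricter filter (800 genes, 5%), equal weight per cell, thinning to 1500 UMIs, median-ratio scaling over genes of at least 50 CPM, totals without mitochondrial and ribosomal protein genes, leaving out cycling cells, a minimum of 20 UMIs, 2-fold, resolutions 0.4 and 1.2, and 10 and 30 components. Merging or leaving out barcodes that share 11 bases was added after the data had been seen. Gene positions are from GENCODE M21. Protein sequences were not used here.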

Additional observations from a re-analysis of the deposited data

How the results depend on the processing

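No paired analysis was possible because each day has 1 library, and for the same reason no replicate could be left out. Of 107 recomputed counts and shares, 90 stayed within 1.5 times of the count or within the counting interval of the share, and 17 did not. From day 4 to day 7 the 1 call (Hk2) became 0 with equal weight per cell, 0 at 2-fold and 0 with barcodes merged. From day 7 to day 14 the 5 calls became 3 after thinning, which leaves 7 members with enough UMIs, and 3 at 2-fold. The 0 calls of cycling cells at day 4 became 1 with equal weight (Pdk1, lower) and 1 with 30 components (Pfkp, lower). For cluster 9, the 4 calls of day 4 became 2 after thinning (Ldhb and Aldoa, which was not called before) and 2 at 2-fold, but 6 without the highest doublet scores (with Aldoa and Pfkp) and 5 under median scaling (with Aldoa), and the 5 of day 7 became 2 after thinning. The 4 calls of Leydig-like barcodes became 1 after thinning and 0 at 2-fold. The Ldhb share moved to 7.59% at day 4 with barcodes merged, to 9.24% (equal weight), 9.12% (without cycling cells) and 8.997% (barcodes merged) at day 7, and to 54.0% at day 14 with equal weight. The log2 ratio of Pdk1 in cluster 9 at day 4 turned to -0.090 with equal weight and -0.59 after thinning. From day 4 to day 14 every member kept its direction under all 10 alternative settings of level, with Ldhb between 7.86 and 10.2 times higher, Slc2a1 at 0.252 to 0.331 of its day 4 level and Aldoa between 1.45 and 1.68 times higher. The median gene stood at a log2 ratio of -0.15 from day 4 to day 14, and relative to it Pkm and Pdk1 also passed 1.5-fold (5 higher, 4 lower). Pdk1 passed it too with the stricter filter, without the highest doublet scores and with equal weight, and Aldoa did not with no filter, without cycling cells, with barcodes merged or left out, or at 2-fold. Comparisons of cluster 9 were not recomputed under other clusterings, which split or renamed it. The cause of these changes was not tested beyond the fewer UMIs that thinning leaves, and genes at a few UMIs per state, such as Slc2a1, limit what this depth can show.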

Other observations

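The pentose phosphate branch, which takes glucose 6-phosphate away from glycolysis to make NADPH and ribose, was tested for 7 genes, and from day 4 to day 14, 2 were called higher and 0 lower, beside 21% and 29.1% of all genes, with a median log2 ratio of -0.03 beside -0.13. Pgls stood at 134, 196 and 217 CPM by day and Rpia, the ribose isomerase gene, at 9.54, 13.4 and 22.9. G6pdx, the NADPH-making entry enzyme, had 32.4, 22.6 and 31.6 CPM by day, and within day 14 it was 2.43 times higher in Leydig-like than in differentiating Leydig-like barcodes (40.8 against 16.8 CPM, interval 1.64–3.70). Of the gluconeogenesis genes, only Pck2 and G6pc3 had enough UMIs. Pck2 stood at 112, 146 and 51.6 CPM and G6pc3 at 18.6, 23.4 and 41.3.

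The muscle-type mutase gene Pgam2 held 19, 7 and 6 UMIs by day. The spermatid forms Pgk2, Gapdhs, Ldhc, Aldoart1, Aldoart2 and Pdha2 stayed at or under 5.29 CPM, and 0 of these 6 had enough UMIs to be compared. Gapdhs held 54, 1 and 6 UMIs and Ldhc 67, 19 and 27.

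Genes often used as references differed in how steady they were. Of 9 such genes tested between days 4 and 14, 1 was called higher (Eef1a1, from 1932 to 3429 CPM) and 1 lower (Actb, from 10107.5 to 1887 CPM), beside 21% and 29.1% of all genes. Rplp0 stood at 2836, 3464 and 2801 CPM and Ppia at 2031, 2312 and 2099. Of 5 stress genes tested, 1 was called higher (Fos, from 11.9 to 83.8 CPM) and 2 lower (Jun and Hspa1b), beside the same shares of all genes. The share of mitochondrially encoded UMIs was 1.37%, 1.46% and 2.64% by day, and that of ribosomal protein genes 13.4%, 13.0% and 12.1%.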
